A study of Mus musculus with 7 samples.

Results

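Interferon-stimulated genes were examined as a group of 48 genes in RNA-seq counts of mouse LSK cells, the Lin-Sca1+Kit+ cells of the bone marrow that contain hematopoietic stem cells and early progenitors. The group holds genes induced by type I interferon, by interferon gamma or by both, and it leaves out antigen presentation genes. Its members were listed by gene symbol, and the list was chosen with earlier results of these data known. All 48 symbols were found among the 24421 symbols of the counts, and all 48 passed the filter on low counts that left 13340 genes for testing. The question was whether loss of 1 Ddx41 allele goes with a different level of these genes.

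Donor marrow of both genotypes carried Rosa-CreERT2, a recombinase expressed from a ubiquitous locus that acts once tamoxifen is given. Ddx41+/- marrow carried a floxed Ddx41 allele over a wild-type one, and Ddx41+/+ marrow carried wild-type alleles. Lethally irradiated BoyJ mice, a congenic strain used as transplant host, received the marrow, and recipients of both genotypes were injected with tamoxifen, 1 mg per injection, so irradiation, transplant, recombinase and drug are shared by the groups. LSK cells were sorted at 8 weeks after transplant, giving 4 samples of Ddx41+/+ (numbered 1 to 4) and 3 of Ddx41+/- (numbered 6 to 8). The sort as labelled names no marker of donor origin, so LSK cells that survived in the host could be included. Excision of the floxed allele in single cells was not measured in these samples. A Ddx41+/- library numbered 5 had been removed from the counts as deposited, without a stated reason. Ages and sexes of the animals are not given in the sources used here.

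Interferons are secreted proteins that act through paired receptors, IFNAR1 with IFNAR2 for type I interferon and IFNGR1 with IFNGR2 for interferon gamma. Receptor-bound JAK kinases phosphorylate STAT proteins, which enter the nucleus. A STAT complex with IRF9 binds the interferon-stimulated response element (ISRE) of type I target genes, and STAT dimers bind the gamma-activated sequence (GAS) of interferon gamma targets. Hematopoietic stem cells respond to both kinds of interferon, which can drive them out of quiescence, and they hold some interferon-stimulated transcripts without infection. DDX41, a DEAD-box RNA helicase, has itself been described as a sensor of cytosolic DNA upstream of type I interferon in dendritic cells.

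The promoters of the genes were searched for the letters of these elements, GAAA, any 2 bases and GAAA for the ISRE, and TTC, any 3 bases and GAA for the GAS, on both strands of the 250 bases before each RefSeq gene start. The letters of both elements can overlap one another, as they do in Bst2. In Igtp the 2 motifs are separate and the windows printed around them overlap. A sequence was matched for 37 of the 48 genes, and Oas2, Mx1, Mx2, Iigp1, Usp18, Parp9, Parp14, Zbp1, Ly6e, Ifi27l2a and Rtp4 had no entry. The ISRE letters were found in 14 of the 37 genes (37.8%), whereas 3.29% of the 10056 tested genes with a promoter and 3.46% of all 27025 genes with a promoter held them. The GAS letters were found in 7 of the 37 (18.9%), against 7.27% of tested genes and 8.13% of all genes. Of the genes described below as lower at an unadjusted p under 0.05, 6 had a promoter sequence. Among these 6, the ISRE letters were found in 2 (33.3%) and the GAS letters in 1 (16.7%). Among the other 31 genes they were found in 12 (38.7%) and 6 (19.4%). Windows around the motif are shown for Gbp2 and Igtp, the genes holding a motif among those described as lower below, and for Isg15, Ifit1, Ifit3, Ifit3b and Irf1, which the comparison uses as reporters. Sequences are from RefSeq (GRCm38.p6) in gene orientation, 5′ to 3′, with the motif in capitals.
Gbp2, ISRE, chr3:142620594-142620623, plus strand: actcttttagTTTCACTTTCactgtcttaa
Igtp, ISRE, chr11:58199512-58199541, plus strand: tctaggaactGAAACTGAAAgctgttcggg
Igtp, GAS, chr11:58199501-58199529, plus strand: aactagccatTTCTAGGAActgaaactga
Isg15, ISRE, chr4:156200871-156200900, minus strand: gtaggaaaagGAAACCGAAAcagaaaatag
Ifit1, ISRE, chr19:34640775-34640804, plus strand: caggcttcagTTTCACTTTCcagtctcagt
Ifit3, ISRE, chr19:34583363-34583392, plus strand: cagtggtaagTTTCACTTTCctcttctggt
Ifit3b, ISRE, chr19:34607759-34607788, plus strand: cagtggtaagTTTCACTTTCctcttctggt
Irf1, GAS, chr11:53769914-53769942, plus strand: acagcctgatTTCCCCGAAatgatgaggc
The motif lay 59 bases before the RefSeq start in Gbp2, 34 (ISRE) and 45 (GAS) in Igtp, 72 in Isg15, 104 in Ifit1 and 90 in Irf1. The GENCODE M21 annotation starts Gbp2 at 142620602, so by that annotation the Gbp2 motif is inside the gene. The windows of Ifit3 and Ifit3b were identical. These matches describe letters in a window and do not show that a factor binds there.

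Library totals ranged from 32234499 to 43751290 counts. Ddx41 was at 92.8 to 106.6 CPM (counts scaled to library size with the TMM factors of edgeR) in Ddx41+/+ and at 64.4 to 69.5 CPM in Ddx41+/- samples, with an edgeR Benjamini-Hochberg (BH) adjusted p of 0.0052. Kit was at 427 to 505 CPM in all samples, whereas Ly6a, which encodes Sca-1 and is itself induced by interferon, was at 13.3 to 30.5 CPM. Ddx41+/- replicate 7 stood apart from the other samples on the first principal component, at 35.7 where the others lay between -12.9 and 0.24. Ddx41+/+ replicate 3 stood apart on the second, at -28.9 where the others lay between -2.97 and 12.4. Markers of several cell types differed between genotypes. The summed level of 11 mature neutrophil markers was 780 to 1323 CPM in Ddx41+/+ and 1403 to 2419 CPM in Ddx41+/- samples. Of the 11, 9 were higher at an unadjusted edgeR p under 0.05, where 5.7% of all genes tested were. The summed level of 14 LSK markers was 2096 to 2295 CPM against 1903 to 2065 CPM, and 9 of the 14 were lower at the same threshold, where 4.93% of all genes were. The 10 B-lineage markers reached 425.8 CPM in Ddx41+/- replicate 7 and 193.8 CPM at most elsewhere. All 10 had a log2 fold change above 0 (48.8% of all genes did), and 3 were higher at an unadjusted edgeR p under 0.05. The 25 immediate-early genes summed to 680 to 1268 CPM in Ddx41+/+ and 1082 to 1650 CPM in Ddx41+/- samples. Plasmacytoid dendritic cells, the main producers of type I interferon, gave no such contrast. Their 9 markers, which include Bst2 of the 48 genes, summed to 464 to 499.5 CPM and 436 to 532 CPM, and the defining marker Siglech was at 1.14 CPM or less. Markers of monocytes and macrophages (209 to 240.3 against 210.3 to 288 CPM), of T and NK cells (224 to 277 against 256 to 284 CPM) and of stroma and endothelium (171 to 197 against 184 to 198 CPM) overlapped between genotypes. The erythroid sum was 184 to 234 against 243 to 258 CPM, with 4 globin genes at 0 in all samples. The part of these cells, of Ddx41+/- replicate 7 and of Ddx41+/+ replicate 3 in the results below was not tested. In sorted bulk cells fewer cells of a type cannot be told apart from less RNA per cell.

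No interferon-stimulated gene passed the test between genotypes, and more of the 48 genes had a lower than a higher level in Ddx41+/- LSK cells. With edgeR, 0 of the 48 genes had a BH-adjusted p under 0.05, where 0.217% of all genes tested did, and the smallest adjusted p was 0.187 (Ifi47). With limma-voom the number was also 0, and with DESeq2 it was 1, Iigp1. At an unadjusted p under 0.05, 8 of the 48 genes (16.7%) were lower in Ddx41+/-, where 4.93% of all genes tested were, and 0 were higher, where 5.7% of all genes were, so that 10.6% of all genes passed in either direction. The 8 were Ifi47, Iigp1, Lgals3bp, Oasl2, Gbp2, Rtp4, Igtp and Ifitm3. The log2 fold change was under 0 in 37 of the 48 genes (77.1%), against 51.2% of all genes tested, and above 0 in the other 11 genes, against 48.8%. Its median was -0.10 over the 48 genes, with quartiles at -0.24 and -0.016 and a range of -0.56 to 0.45. Over all genes tested the median was -0.0048, with quartiles at -0.11 and 0.10. In 6 of the 48 genes (12.5%), Gbp2, Iigp1, Ifi47, Lgals3bp, Xaf1 and Rtp4, every Ddx41+/- sample was below every Ddx41+/+ sample in CPM, where 5.21% of all genes showed this. The opposite separation was found in 0 of the 48 and in 4.85% of all genes, so that 10.1% of all genes separated in either direction.

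**Figure D1:**
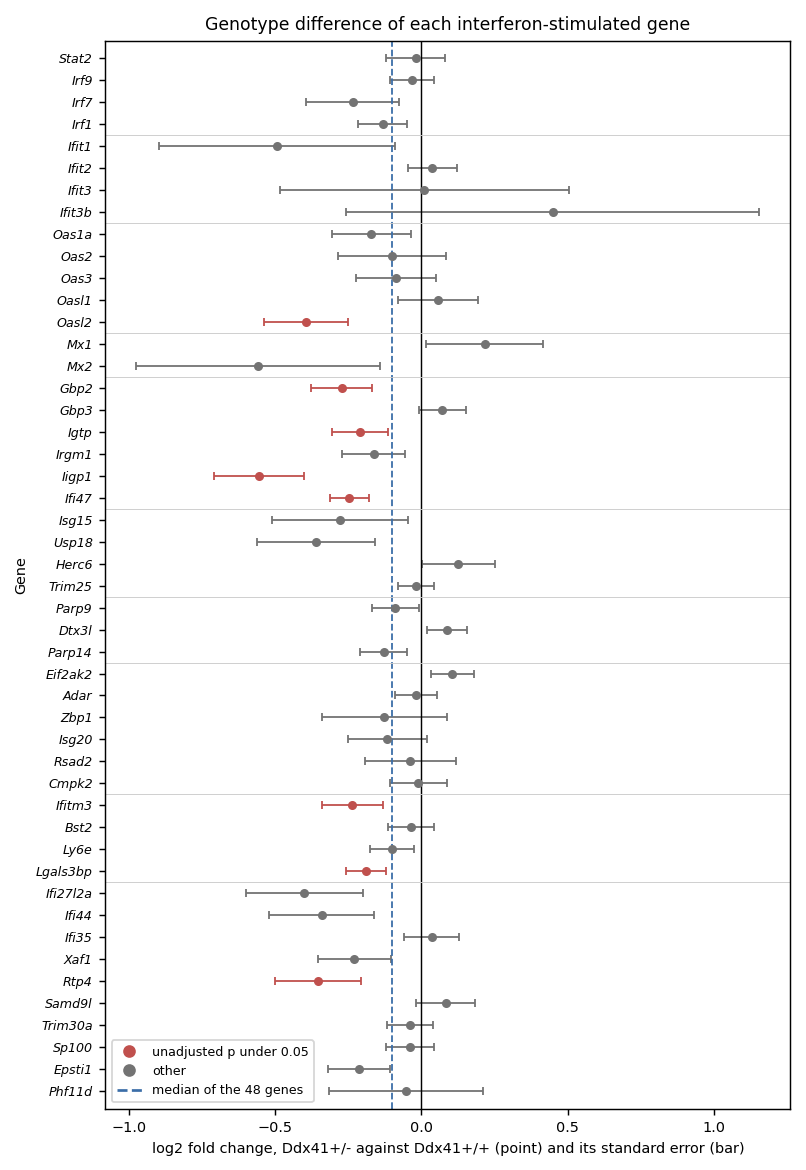
Log2 fold change of Ddx41+/- against Ddx41+/+ (x axis, point) with its standard error (bar) for the 48 interferon-stimulated genes, ordered by role with lines between roles. Red marks the 8 genes with an unadjusted edgeR p under 0.05, all left of 0, and the dashed line is the median of the 48 genes, -0.10.

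These counts depended on single samples of both genotypes. Without Ddx41+/+ replicate 3, 31 genes had a log2 fold change under 0 (37 with all samples). The median was then -0.072 over the 48 genes, against -0.0016 over all genes. Without replicate 6, 17 genes were lower at an unadjusted p under 0.05, where 6.54% of all genes were, and 16 were lower without overlap between genotypes, where 11.9% of all genes were. Without replicate 7 the number lower was 4 (3.55% of all genes) and without replicate 8 it was also 4 (4.12%). Without replicate 7, 1 gene was higher at an unadjusted p under 0.05, and 3 genes lay above the Ddx41+/+ range in both remaining Ddx41+/- samples. The shares of all genes that were higher in this fit were not counted. In the same fit 7 genes were lower without overlap, where 8.36% of all genes were. The median log2 fold change stayed under 0, between -0.14 and -0.069, in all 7 fits that left out 1 sample.

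The ligands and receptors that open the pathway were looked at first. Interferon transcripts were nearly absent from these cells. Of 21 interferon genes in the counts, 19 had 0 counts in all samples. Ifnab had 1 count in Ddx41+/+ replicate 2 and 1 in Ddx41+/- replicate 8, and Ifng had 2 counts in Ddx41+/- replicate 8. A count of 0 allows a level of up to 3 counts, which is 0.0676 to 0.0948 CPM depending on the library, for counting error only. These cells therefore gave no level of interferon transcripts that could be compared, and interferon made by other cells of the marrow was not measured.

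The receptor genes of both branches were expressed in all samples. Ifnar1, a chain of the type I receptor, was at 87.4, 87.3, 90.1 and 89.0 CPM in Ddx41+/+ and 85.6, 82.3 and 84.3 CPM in Ddx41+/- samples. The Ddx41+/- values were all under the Ddx41+/+ values, by a log2 fold change of -0.07 (SE 0.06, edgeR BH-adjusted p = 0.728). Ifnar2, the other chain, was at 126 to 131 CPM in Ddx41+/+ and 132, 128 and 112 CPM in Ddx41+/- samples (log2 fold change -0.05). For interferon gamma, Ifngr1 was at 275 to 334 CPM against 317 to 383 CPM and Ifngr2 at 46.8 to 56.9 CPM against 41.6 to 48.4 CPM, with log2 fold changes of 0.15 and -0.14 and overlapping groups. Ifnlr1, the receptor of interferon lambda, was at 1.17 CPM or less. Of the 6 receptor genes, 0 passed the edgeR test after BH adjustment.

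Downstream of the receptors, 7 JAK-STAT and IRF genes outside the 48 were tested and 0 passed, also at an unadjusted p under 0.05. The kinases Jak1 and Tyk2 had log2 fold changes of 0.02 and 0.12 (edgeR BH-adjusted p = 0.948 and 0.624). Of 8 inhibitors of the pathway 0 passed. Socs1, a feedback inhibitor of JAK kinases that interferon gamma induces, was at 2.23 to 3.38 CPM in Ddx41+/+ and at 1.73, 3.53 and 1.80 CPM in Ddx41+/- samples, so that replicate 7 was the highest of all samples and the other Ddx41+/- samples the lowest. Among the inhibitors, Cish and Ptpn2 were the genes with an unadjusted p under 0.05 and were singled out after their values were seen. Cish, a cytokine-induced inhibitor of STAT5 signalling, was at 10.5 to 17.0 CPM in Ddx41+/+ and at 9.06, 7.48 and 6.88 CPM in Ddx41+/- samples (log2 fold change -0.79, SE 0.17, edgeR BH-adjusted p = 0.0792). Ptpn2, a phosphatase of JAK and STAT proteins, was at 51.6 to 58.5 CPM and at 63.1, 68.2 and 60.2 CPM (log2 fold change 0.19, edgeR BH-adjusted p = 0.366). Neither gene overlapped between genotypes. By either rule 1 of the 8 inhibitors (12.5%) was thus higher and 1 lower. Of all genes tested, 5.7% were higher and 4.93% lower at an unadjusted p under 0.05. Without overlap, 4.85% of all genes were higher and 5.21% lower. Over the 21 pathway genes tested, 7 had a log2 fold change above 0 (33.3%, against 48.8% of all genes tested). The other 14 were below 0 (66.7%, against 51.2%), and the median was -0.053.

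Among the 48 genes themselves, 4 are signalling and transcription factors. All 4 had a log2 fold change under 0 (51.2% of all genes tested did) without reaching an unadjusted p under 0.05. Stat2, a STAT protein of type I signalling, was at 47.0, 39.9, 35.7 and 40.4 CPM in Ddx41+/+ and 36.6, 39.2 and 44.8 CPM in Ddx41+/- samples. Irf9, which gives that complex its DNA contact, was at 53.5, 56.8, 62.0 and 59.2 CPM against 55.5, 55.0 and 59.2 CPM. Both genes overlapped fully, with log2 fold changes of -0.02 (SE 0.10) and -0.03 (SE 0.07). Irf7, which amplifies interferon production and is strongly induced by interferon, was at 18.7, 17.3, 22.5 and 22.8 CPM in Ddx41+/+ and 22.6, 15.1 and 14.1 CPM in Ddx41+/- samples. Replicate 6 was among the highest values and replicates 7 and 8 were the lowest, and the log2 fold change of -0.24 (SE 0.16) had an edgeR BH-adjusted p of 0.648. It was -0.48 without replicate 6, -0.15 without replicate 7 and -0.11 without replicate 8. Irf1, a transcription factor induced by interferon gamma whose GAS window is printed above, was at 76.2, 83.4, 78.6 and 75.8 CPM against 78.4, 61.0 and 75.3 CPM (log2 fold change -0.13, SE 0.08, edgeR BH-adjusted p = 0.617). Replicate 7 alone was far from the other samples for this gene, and the log2 fold change was -0.031 without it and -0.20 without replicate 6.

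The guanylate-binding proteins (GBP) and immunity-related GTPases (IRG), which attack the vacuoles of intracellular pathogens and are induced mainly by interferon gamma, form 6 of the 48 genes. Of these, 5 had a log2 fold change under 0 (51.2% of all genes tested), 4 were lower at an unadjusted p under 0.05 (4.93% of all genes) and 3 were lower without overlap between genotypes (5.21% of all genes), while 0 passed the BH adjustment. Iigp1, an effector GTPase on chromosome 18, was at 12.4, 10.5, 13.99 and 10.6 CPM in Ddx41+/+ and 8.86, 7.27 and 8.05 CPM in Ddx41+/- samples. All Ddx41+/- samples were lower, at 68.0% of the Ddx41+/+ mean, with a log2 fold change of -0.56 (SE 0.15), an unadjusted p of 0.00249 and an edgeR BH-adjusted p of 0.195. With DESeq2 the adjusted p of Iigp1 was 0.0495. Ifi47, an IRG protein also called IRG-47, was at 124, 127, 139 and 121 CPM against 109.6, 102 and 111 CPM. This was 84.3% of the Ddx41+/+ mean, without overlap, with a log2 fold change of -0.25 (SE 0.07), an unadjusted p of 0.0022 and an edgeR BH-adjusted p of 0.187. When 1 sample was left out, the log2 fold change stayed between -0.63 and -0.47 for Iigp1 and between -0.27 and -0.20 for Ifi47.

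Gbp2 had the smallest relative spread of these genes in Ddx41+/+ cells, with 23.0, 23.3, 23.0 and 23.7 CPM. Its Ddx41+/- values were 21.8, 18.0 and 18.0 CPM, all lower, although replicate 6 lay nearer to the Ddx41+/+ samples than to replicates 7 and 8. The log2 fold change was -0.27 (SE 0.10, edgeR BH-adjusted p = 0.363). Igtp, also called IRGM3, was at 33.2, 37.1, 38.5 and 41.6 CPM against 30.8, 35.2 and 31.5 CPM. Replicate 7 was above the lowest Ddx41+/+ sample, and the log2 fold change was -0.21 (SE 0.09, edgeR BH-adjusted p = 0.442). Irgm1, which regulates the other IRG proteins and protects stem cells from interferon-driven exhaustion, was at 55.6, 51.3, 71.0 and 55.5 CPM against 58.7, 50.0 and 47.5 CPM. Its log2 fold change of -0.16 (SE 0.11) was -0.056 without Ddx41+/+ replicate 3, the highest sample, -0.10 without Ddx41+/- replicate 8 and -0.26 without Ddx41+/- replicate 6. Gbp3, which lies 47.4 kb from Gbp2 on chromosome 3, was the member of the family above 0, with a log2 fold change of 0.07 and 113 CPM in replicate 7 as its highest value. Igtp overlaps Irgm2 and Ifi47 overlaps Olfr56 on the same strand in the annotation, and how reads in such overlaps were counted is not stated. Irgm2 had a log2 fold change of -0.04, and Olfr56 was at 2.29 CPM on average.

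**Figure D2:**
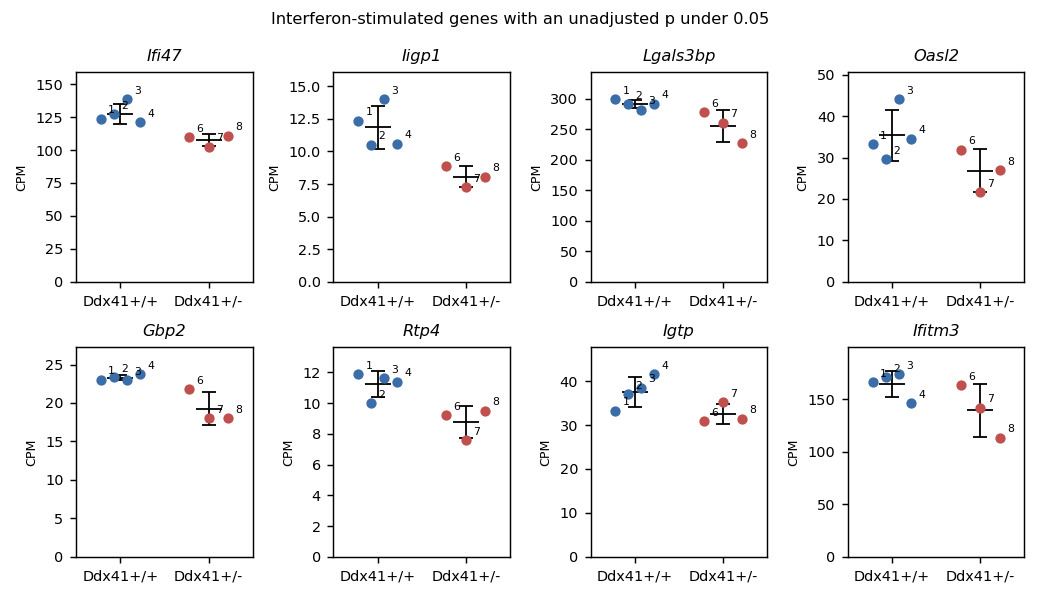
CPM of each sample (points, numbered by replicate) for the 8 interferon-stimulated genes with an unadjusted edgeR p under 0.05, in Ddx41+/+ (blue, n = 4) and Ddx41+/- (red, n = 3), with the mean and SD in black. The groups do not overlap in Ifi47, Iigp1, Lgals3bp, Gbp2 and Rtp4, and they overlap in Oasl2, Igtp and Ifitm3.

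The classical type I reporters had low levels and a wide spread. Ifit1, which binds the ends of viral RNA that lack host methylation, was at 2.88, 4.22, 4.36 and 4.45 CPM in Ddx41+/+ and 4.37, 0.860 and 3.18 CPM in Ddx41+/- samples. Replicate 7 was at 21.6% of the Ddx41+/+ mean with 29 counts, whereas replicate 6 was at 109.8%. The log2 fold change of -0.49 (SE 0.40, edgeR BH-adjusted p = 0.717) was -0.075 without replicate 7 and -0.96 without replicate 6. Isg15, a ubiquitin-like protein joined to other proteins and also secreted, was at 7.98, 6.06, 6.35 and 5.72 CPM against 7.67, 3.71 and 4.76 CPM. The genotypes overlapped through replicate 6, and the log2 fold change of -0.28 (SE 0.23) was -0.074 without replicate 7, -0.62 without replicate 6 and -0.17 without Ddx41+/+ replicate 1. Usp18, which removes ISG15 and blocks signalling at IFNAR2, was at 6.72, 8.39, 8.69 and 8.59 CPM against 7.90, 4.36 and 6.61 CPM (log2 fold change -0.36, SE 0.20, edgeR BH-adjusted p = 0.560). Its log2 fold change was -0.16 without replicate 7 and -0.56 without replicate 6. Mx1, a gene of the Mx GTPase family, went the other way, at 4.55, 4.14, 5.40 and 5.53 CPM in Ddx41+/+ and 6.37, 4.57 and 6.11 CPM in Ddx41+/- samples (log2 fold change 0.22, SE 0.20, edgeR BH-adjusted p = 0.754). This was 0.13 without replicate 6 and 0.35 without replicate 7. Its neighbour Mx2, annotated as a polymorphic pseudogene, had a log2 fold change of -0.56 (SE 0.42) that rested on 18 counts in replicate 7.

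The rest of the IFIT and OAS families did not separate by genotype. Ifit2 was at 35.9 to 41.6 CPM in all samples, with a log2 fold change of 0.04. Ifit3 had 17 to 42 counts and Ifit3b 5 to 26 counts per sample. Ifit3 was at 0.411, 0.828, 1.04 and 1.16 CPM against 0.965, 0.860 and 0.767 CPM, and Ifit3b at 0.387, 0.181, 0.316 and 0.166 CPM against 0.330, 0.148 and 0.586 CPM. The genes are near-identical, and so are the promoter windows printed above, which leaves uncertain how reads were divided between the pair. Among the Ddx41+/+ samples Ifit3 was lowest and Ifit3b highest in replicate 1, and the reverse was found in replicate 4. Several OAS proteins, though not all of the family, make the messenger that activates RNase L. Of the 5 genes of this family, 4 had a log2 fold change under 0 (80%, against 51.2% of all genes tested). Oasl2 was the one with an unadjusted p under 0.05, at 33.2, 29.6, 44.1 and 34.5 CPM in Ddx41+/+ and 31.9, 21.7 and 27.0 CPM in Ddx41+/- samples. Replicate 6 overlapped with the Ddx41+/+ samples, and the log2 fold change was -0.39 (SE 0.14, edgeR BH-adjusted p = 0.348). Oasl1, which lies 11005 bases from Oasl2 on the same strand of chromosome 5, had a log2 fold change of 0.06 (SE 0.14).

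The membrane and secreted proteins were the most abundant of the 48 genes, and all 4 were lowest in Ddx41+/- replicate 8. Levels between genes were compared per kilobase of exon as TPM (length-scaled transcript units, mean over all samples). Ly6e, a lipid-anchored surface protein that blocks virus entry, was first at 1156 TPM, followed by Ifitm3 at 789.8, Lgals3bp at 338, Bst2 at 248 and Ifi47 at 168 TPM. Ifit3 and Ifit3b were last, at 1.72 and 0.532 TPM. The middle gene of the 48 stood at percentile 54.0 of all genes tested, with a range of 6.38 to 99.2. Lgals3bp, a secreted galectin-binding glycoprotein, was at 299, 291, 282 and 292 CPM in Ddx41+/+ and 278, 261 and 227 CPM in Ddx41+/- samples. All Ddx41+/- samples were lower, and the log2 fold change was -0.19 (SE 0.07, unadjusted p = 0.0134, edgeR BH-adjusted p = 0.326), or -0.11 without replicate 8. Ifitm3, which prevents fusion of viruses in endosomes and is highly expressed by stem cells, was at 166, 171, 174 and 146 CPM against 163, 142 and 113 CPM. Its log2 fold change of -0.24 (SE 0.11, edgeR BH-adjusted p = 0.449) was -0.11 without replicate 8 and -0.36 without replicate 6. Ly6e was at 1197, 1308, 1375 and 1280.1 CPM against 1256, 1304 and 1053 CPM, and Bst2, the tethering factor of budding virions, at 62.2, 66.7, 65.3 and 65.5 CPM against 69.1, 64.8 and 56.3 CPM. For both genes replicate 8 alone lay below all other samples, and the log2 fold changes were -0.10 (SE 0.07) and -0.03 (SE 0.08). Without replicate 8 they were -0.011 for Ly6e and 0.045 for Bst2. Leaving out another Ddx41+/- sample gave -0.16 for Ly6e (replicate 7) and -0.10 for Bst2 (replicate 6).

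Genes that act on RNA and nucleotides had small differences, with a median log2 fold change of -0.028. Eif2ak2, the kinase PKR that stops translation upon binding double-stranded RNA, had a log2 fold change of 0.11 (SE 0.07). The editing enzyme gene Adar and the genes Cmpk2 and Rsad2, a pair only 12.8 kb apart that encodes a nucleotide kinase and the antiviral enzyme viperin, had log2 fold changes of -0.02, -0.01 and -0.04. Isg20, an exonuclease, and Zbp1, which binds Z-form nucleic acids, had log2 fold changes of -0.12 and -0.13, and 0 of these 6 genes had an unadjusted p under 0.05. Parp9 and Dtx3l, whose products form a complex and whose start sites lie 681 bases apart on opposite strands, with the genes overlapping in between, had log2 fold changes of -0.09 and 0.09, with overlapping groups in both. Parp14 was at -0.13. The ubiquitin ligase genes Herc6 and Trim25 had log2 fold changes of 0.13 and -0.02.

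Of the 10 other induced genes, 8 had a log2 fold change under 0 (80%, against 51.2% of all genes tested). Rtp4, a receptor chaperone that interferon induces, was at 11.9, 9.99, 11.6 and 11.4 CPM in Ddx41+/+ and 9.22, 7.59 and 9.49 CPM in Ddx41+/- samples. The groups did not overlap, and the log2 fold change was -0.35 (SE 0.15, unadjusted p = 0.0281, edgeR BH-adjusted p = 0.403). Xaf1, which binds the apoptosis inhibitor XIAP, did not overlap either, at 12.1 to 13.2 CPM against 10.6 to 11.3 CPM, with a log2 fold change of -0.23 and an unadjusted edgeR p of 0.0883. Ifi27l2a and Ifi44 had log2 fold changes of -0.40 (SE 0.20) and -0.34 (SE 0.18), and Epsti1 one of -0.21 (SE 0.11). Ifi35 and Samd9l were above 0, at 0.04 and 0.08, and Trim30a, Sp100 and Phf11d lay between -0.05 and -0.04.

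**Figure D3:**
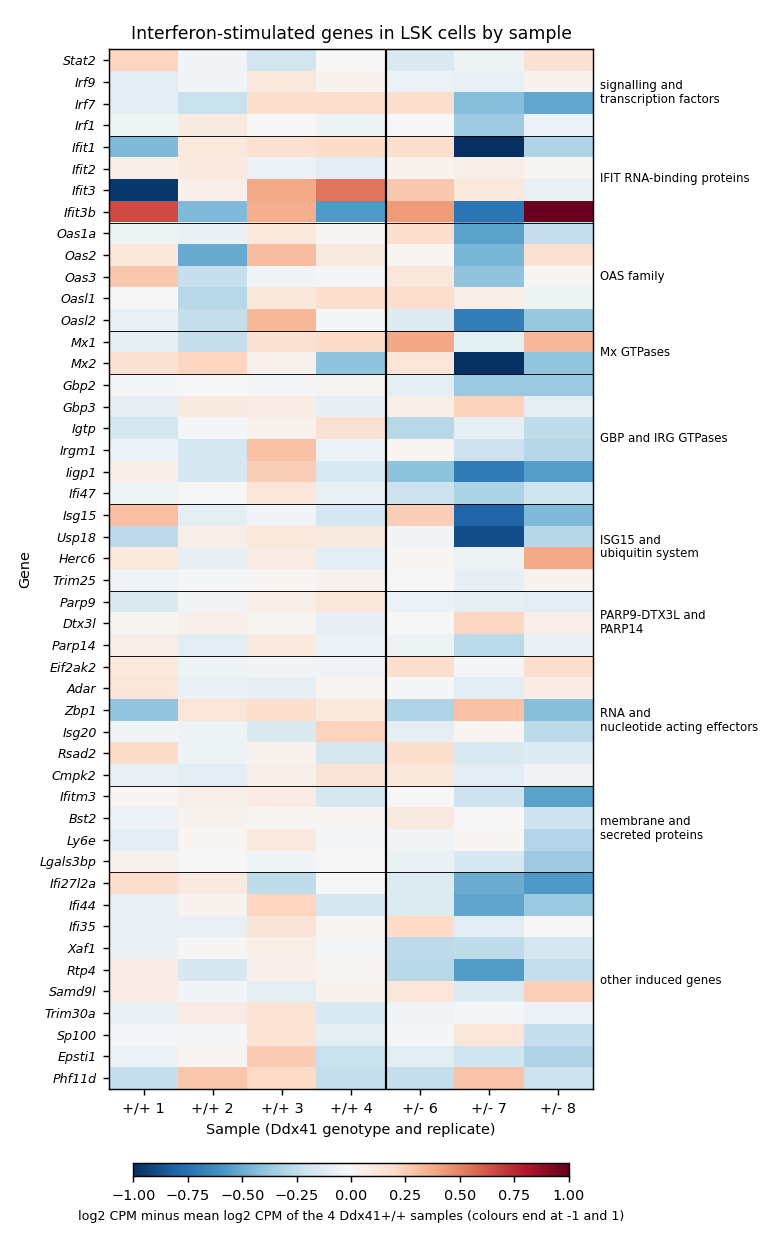
Log2 CPM of the 48 interferon-stimulated genes in each sample minus the mean of the 4 Ddx41+/+ samples (colour, blue lower and red higher, ending at -1 and 1), grouped by role, with Ddx41+/+ samples left and Ddx41+/- samples right of the line. Blue cells gather in replicates 7 and 8, where 25 and 24 genes lay below the Ddx41+/+ range, and replicate 6 has 7 such genes.

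The Ddx41+/- samples differed among themselves in which of these genes were low. When log2 CPM was centred on each gene's mean and averaged over the 48 genes, the Ddx41+/+ samples were at 0.035, 0.018, 0.14 and 0.043 (replicates 1, 2, 3 and 4). The Ddx41+/- samples were at 0.057, -0.22 and -0.072 (replicates 6, 7 and 8). Replicate 6 was thus within the Ddx41+/+ samples, and replicates 7 and 8 were under them. In replicate 6, 7 of the 48 genes (14.6%) were under the Ddx41+/+ range, where 17.7% of all genes tested were. In replicate 7 the share was 52.1% against 27.8% of all genes, and in replicate 8 it was 50.0% against 22.6%. Genes above the Ddx41+/+ range numbered 7, 4 and 6 in replicates 6, 7 and 8 (14.6%, 8.33% and 12.5%), where 16.8%, 25.8% and 23.1% of all genes were above it. Of the 48 genes, 16 were under the Ddx41+/+ range in both replicates 7 and 8, where 11.9% of all genes were in the fit without replicate 6. Replicate 7 was the lowest Ddx41+/- sample in 25 genes, among them Isg15 (56.8% of the Ddx41+/+ mean), Usp18 (53.9%) and Oasl2 (61.2%). Replicate 8 was the lowest in 18 genes, among them Ifitm3 (69.0%), Lgals3bp (77.9%) and Ly6e (81.6%). Among Ddx41+/+ samples replicate 3 was the highest of all samples in 15 of the 48 genes, a number that includes Irgm1, Iigp1, Ifi47 and Oasl2. How often each sample was the lowest or highest over all genes was not counted.

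**Figure D4:**
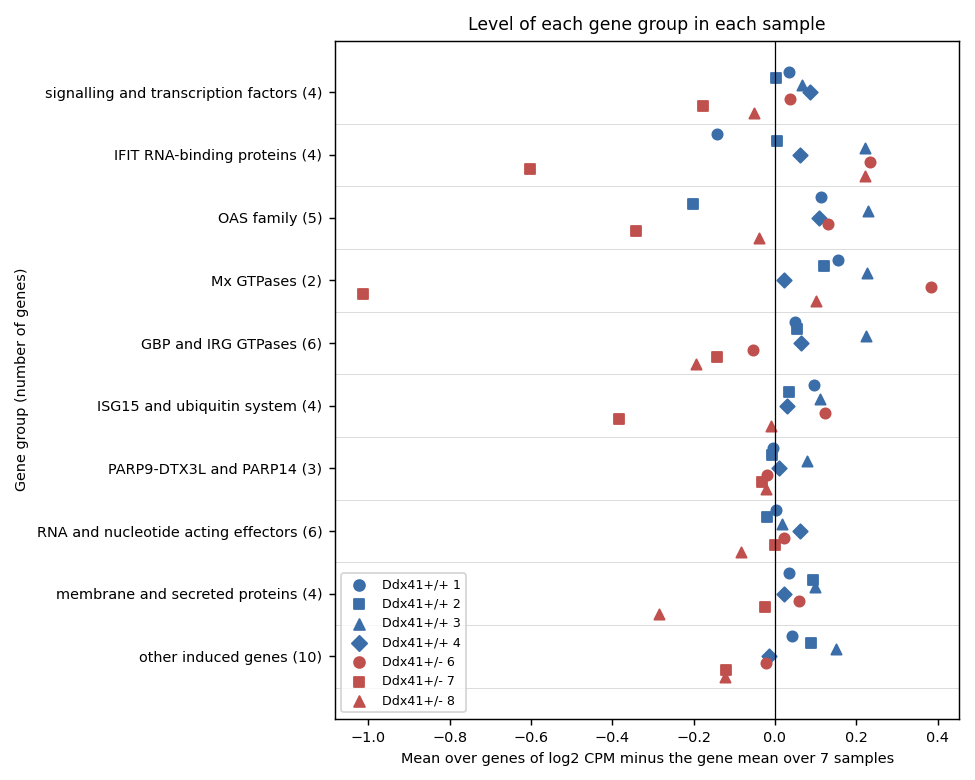
Mean over the genes of each role of log2 CPM minus the gene mean over the 7 samples (x axis), for Ddx41+/+ (blue) and Ddx41+/- (red) samples with a symbol per replicate. In the GBP and IRG group all Ddx41+/- samples lie left of all Ddx41+/+ samples. By small margins they also do in the PARP group and among the other induced genes. Replicate 7 alone is far left in the IFIT, Mx and ISG15 groups. Replicate 7 and Ddx41+/+ replicate 2 are left of the others in the OAS group, and replicate 8 in the membrane and secreted group.

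By role the same samples fell in different places. For the 6 GBP and IRG genes the mean level was 0.048 to 0.22 in Ddx41+/+ and -0.055, -0.14 and -0.19 in Ddx41+/- replicates 6, 7 and 8. This group separated the genotypes in every sample, and 3 of its 6 genes, Gbp2, Iigp1 and Ifi47, did so singly. How often other groups of genes separate was not counted. For the 4 IFIT genes replicate 7 was at -0.60 and replicates 6 and 8 at 0.23 and 0.22, at or above the highest Ddx41+/+ sample at 0.22. The replicate 7 value rested on Ifit1 and Ifit3b, with 29 and 5 counts there. Ifit2 and Ifit3 were at 104.1% and 99.96% of the Ddx41+/+ mean in replicate 7. The Mx mean of -1.01 in replicate 7 rested on Mx2, with 18 counts, and Mx1 was at 93.2% of the Ddx41+/+ mean. For the 4 genes of the ISG15 and ubiquitin group replicate 7 was at -0.38 and replicate 6 at 0.12, above all Ddx41+/+ samples. For the 4 membrane and secreted proteins replicate 8 was at -0.28, replicate 7 at -0.025 and replicate 6 at 0.059, inside the Ddx41+/+ range of 0.023 to 0.098. The PARP group and the 10 other induced genes also had all Ddx41+/- samples under all Ddx41+/+ samples, by margins of less than 0.02.

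Relatives of these families that are not among the 48 genes were tested in the same way. Of 38 relatives listed, 37 were in the counts and 35 were tested. After BH adjustment 0 passed the edgeR test, 4 were lower (4.93% of all genes tested) and 0 higher (5.7% of all genes) at an unadjusted p under 0.05, and 25 of the 35 had a log2 fold change under 0 (71.4%, against 51.2% of all genes), with a median of -0.064. The 4 were Oas1c, Ifi27, Parp12 and Phf11b, singled out after their values were seen. Phf11b was at 7.13 to 9.07 CPM in Ddx41+/+ and 6.07, 5.19 and 5.16 CPM in Ddx41+/- samples (log2 fold change -0.54, edgeR BH-adjusted p = 0.281). Ifi27, a relative of Ifi27l2a, was at 70.3 to 80.8 CPM against 67.2, 45.9 and 65.9 CPM (log2 fold change -0.35, edgeR BH-adjusted p = 0.300). In both genes all Ddx41+/- samples were under all Ddx41+/+ samples.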

How the data were processed

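Poly(A) RNA of sorted LSK cells was sequenced by the authors, who deposited raw counts per gene symbol for 7 samples, not normalized. The submitters' processing notes list FastQC 0.11.7, HISAT2 2.0.5 and featureCounts 1.5.2 with the mm10 build. Strand and multimapping settings are not given in the sources used here, and the labels and the methods name different library kits, so overlapping and near-identical genes are uncertain. All columns of sample values were used. Positions, exon lengths and gene overlaps were taken from GENCODE M21 by symbol.

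Genotypes were compared by edgeR 4.0.16 (R 4.3.3) with its quasi-likelihood F test (filterByExpr, TMM scaling, robust fit) over 13340 genes, with BH adjustment over all of them and a threshold of 0.05. The biological coefficient of variation was 12.9%. CPM used TMM-scaled library sizes, and log2 CPM a prior count of 2. Alternatives were median-of-ratios scaling, library totals, no filter, DESeq2 1.42.0, limma-voom 3.58.1 and leaving out each sample. Scripts were tested on simulated counts with 200 changed genes. Of the genes called at the same threshold there, 14.6% were false with DESeq2, 7.32% with edgeR and 6.17% with limma-voom. Each tool recovered 70% of the 1.5-fold changes. Chi-square values per gene were 13.7 or more in the 21 sample pairs (genes with at least 20 counts), so no pair agreed within sampling noise. The 48 genes and all lists were chosen with earlier results of these data known.

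Values in every sample were given for genes with an unadjusted p under 0.05, the 4 signalling factors, reporters (Ifit1, Isg15, Mx1, Usp18, Igtp, Irgm1, Gbp2), the 5 genes with the highest TPM, and Ifit3 with Ifit3b. Of the pathway, Ifnar1, Ifnar2, Ifngr1, Ifngr2, Jak1, Tyk2 and Socs1 were named by this rule and the other genes entered the counts, except 1 that was left out of them and is not reported here.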

Additional observations from a re-analysis of the deposited data

Results flagged for a closer look

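Ifit1 and Usp18 were low in Ddx41+/+ replicate 1 compared with the other Ddx41+/+ samples. Ifit1 was at 2.88 CPM there and at 4.22 CPM in the nearest sample (Dixon's ratio 0.854), and Usp18 was at 6.72 CPM against 8.39 CPM (0.847), above the critical value for 4 samples. Of 30 values examined in the Ddx41+/+ group 2 passed, and chance gives 1.5, about 1 in 20. The 3 Ddx41+/- samples are too few for this check.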

How the results depend on the processing

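The 7 summary values and 29 named genes were recomputed under 12 alternatives, of which 5 kept all samples, except that overlap in CPM was not counted with DESeq2 and limma-voom. No paired analysis was possible because the replicate numbers of the genotypes, 1 to 4 and 6 to 8, do not overlap. With DESeq2, 1 of the 48 genes passed the BH adjustment, Iigp1 (log2 fold change -0.55, adjusted p = 0.0495). Over all genes the number that passed was 29 with edgeR, 24 with median-of-ratios scaling, 15 with library totals, 91 without a filter, 164 with DESeq2 and 22 with limma-voom. Ifit3 had a log2 fold change of -0.0031 with library totals. The shares of all genes that were higher were not counted in the fits that left out 1 sample. Leaving out 1 sample gave 0 to 0 genes past the BH adjustment. At an unadjusted p under 0.05 it gave 4 to 17 lower genes (3.55% to 6.54% of all genes tested were lower) and 0 to 1 higher genes. Without overlap it gave 6 to 16 lower and 0 to 3 higher genes. Of all genes 6.71% to 11.9% were then lower without overlap, against 5.21% with all samples. Leaving out 1 sample gave 31 to 38 genes with a log2 fold change under 0, and the share of all genes under 0 was not counted there. It turned the sign of Ifit3b, which had the highest log2 fold change of the 48 genes, and of genes near 0, with log2 fold changes of -0.11 to 0.056 for Stat2, -0.069 to 0.0022 for Irf9, -0.23 to 0.19 for Ifit3, -0.12 to 0.80 for Ifit3b, -0.10 to 0.045 for Bst2, -0.10 to 0.013 for Ifnar2 and -0.015 to 0.052 for Jak1. The cause was not tested. The lowest depth limits Ifit3b, Ifit3, Mx2 and Ifit1, with 5, 17, 18 and 29 counts in their lowest samples.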
